A study of Mus musculus with 8 samples.

Results

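The nucleolar ribosome biogenesis genes examined here are 48 protein-coding genes whose products make or process ribosomal RNA (rRNA) in the nucleolus. They were found as the rows whose name in the deposited tables equals one of 48 symbols, and all 48 were present among the 41457 genes listed. Their RNA was measured in keratinocytes (KCs), the epithelial cells of the epidermis, prepared from the tail skin of adult wildtype mice of the C57BL/6 strain and kept in serum-free KC medium of low calcium content. Untreated cells were harvested after 1 week of culture (4 samples) or after 3 weeks of culture (4 samples). The series describes 4 independent experiments, and the comparison asks how gene expression of such KCs differs between both culture times. Cells were passaged when nearly confluent, and no sort of the cells is described.

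Ribosome production begins in the nucleolus, where RNA polymerase I transcribes a long precursor rRNA. Small nucleolar ribonucleoproteins (snoRNPs) modify this precursor, those of the box C/D type by methylation and those of the box H/ACA type by pseudouridylation, and large sets of assembly factors fold and cut it into the rRNAs of the small and the large subunit. The pathway consumes much of the energy of a growing cell and is known to be active in proliferating cells such as the basal KCs of the epidermis.

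All 8 samples had between 13896807 and 20026084 reads on exons, of which between 81.6% and 84.7% mapped to a single place. Summed levels of 7 basal KC markers were high at both times (12182 to 14439 RPKM at 1 week and 7106 to 8279 RPKM at 3 weeks), whereas those of 5 suprabasal markers stayed at or under 26.7 RPKM. Of the basal markers 2 of 7 were called lower at 3 weeks, the keratin gene Krt5 (log2 fold change −1.32) and the integrin gene Itga6 (−0.75). Not called were Krt14 (−0.23) and Trp63 (−0.69), as well as Krt15 (0.47), Itgb4 (0.40) and Col17a1 (0.05). Krt5 and Krt14 made up most of the basal sum. Their means were 6170 and 6941 RPKM at 1 week and 2207 and 5283 RPKM at 3 weeks. Of 4 tested suprabasal markers 1 was called lower, Krt1 (−2.44). The part of these markers in the results below was not tested. Markers of fibroblasts summed to between 2.71 and 6.32 RPKM, those of immune cells to at most 1.67 RPKM and those of endothelial cells to at most 0.559 RPKM, with Cd207 listed at 0 in every sample. Melanocyte markers summed to between 3.22 and 21.0 RPKM at 1 week and between 1.28 and 5.55 RPKM at 3 weeks, and 1 of the 4 that could be tested, Pmel, was lower. RPKM, as the authors deposited it, scales the reads on exons to exon length and library size.

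After 3 weeks the nucleolar genes were lower as a group. Of the 48 genes, 42 were lower and 0 were higher than at 1 week, at an adjusted p under 0.05 (quasi-likelihood test of edgeR), where 17.0% of the 12590 tested genes were called lower and 15.7% higher. At an unadjusted p under 0.05 no member was higher, beside 21.7% of all tested genes. DESeq2 also called 0 of them higher, beside 19.3% of all tested genes. The log2 fold change was negative for 47 of the 48 genes and its median was −0.87, beside a median of 0.03 over all tested genes. A decrease of at least 2-fold was called for 17 members, compared with 8.08% of all genes. Above a mean of 10 CPM (counts scaled to library size), a level that all 48 reached, the share called lower was 17.3%. The 4 normalized values at 3 weeks were all below the 4 values at 1 week for 42 members, a separation found for 18.5% of all tested genes. In RPKM such a separation was found for 44 members and for 26.2% of all tested genes. RPKM lacks the correction for library composition that enters the fold changes, and the median gene had a change of −0.16 on the log2(RPKM + 0.1) scale. With the numbers in the deposited names taken as preparation numbers, 3 cell preparations occurred at both times, and a fit within these preparations called 37 members lower and 0 higher, beside 14.2% and 10.4% of 12649 tested genes. The 5 calls that ended in that fit were those of Ncl, Gnl2, Tsr1, Ddx10 and Rrn3. Samples of preparations not shared between both times were left out of it. The median log2 fold change of the members was −0.97 there, so that a lost call alone is no sign of a smaller change. In bulk RNA, fewer cells expressing a gene and less RNA per cell cannot be told apart.

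Together the members took up 0.493%, 0.547%, 0.527% and 0.554% of all exon reads in replicates 1 to 4 at 1 week. At 3 weeks these shares were 0.282%, 0.277%, 0.240% and 0.251%. All samples at 3 weeks therefore lay below all samples at 1 week, and the 4 values of a time point lay close to each other. The cell cycle markers moved in the same direction. All 15 of these genes were lower, beside 17.0% of all tested genes, with a median log2 fold change of −2.75. They summed to between 288 and 597 RPKM at 1 week but only to between 45.0 and 88.2 RPKM at 3 weeks. At 1 week that sum was 336, 288, 524 and 597 RPKM in replicates 1 to 4. The part that the number of cycling cells has in the decrease of the nucleolar genes was not tested.

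**Figure D1:**
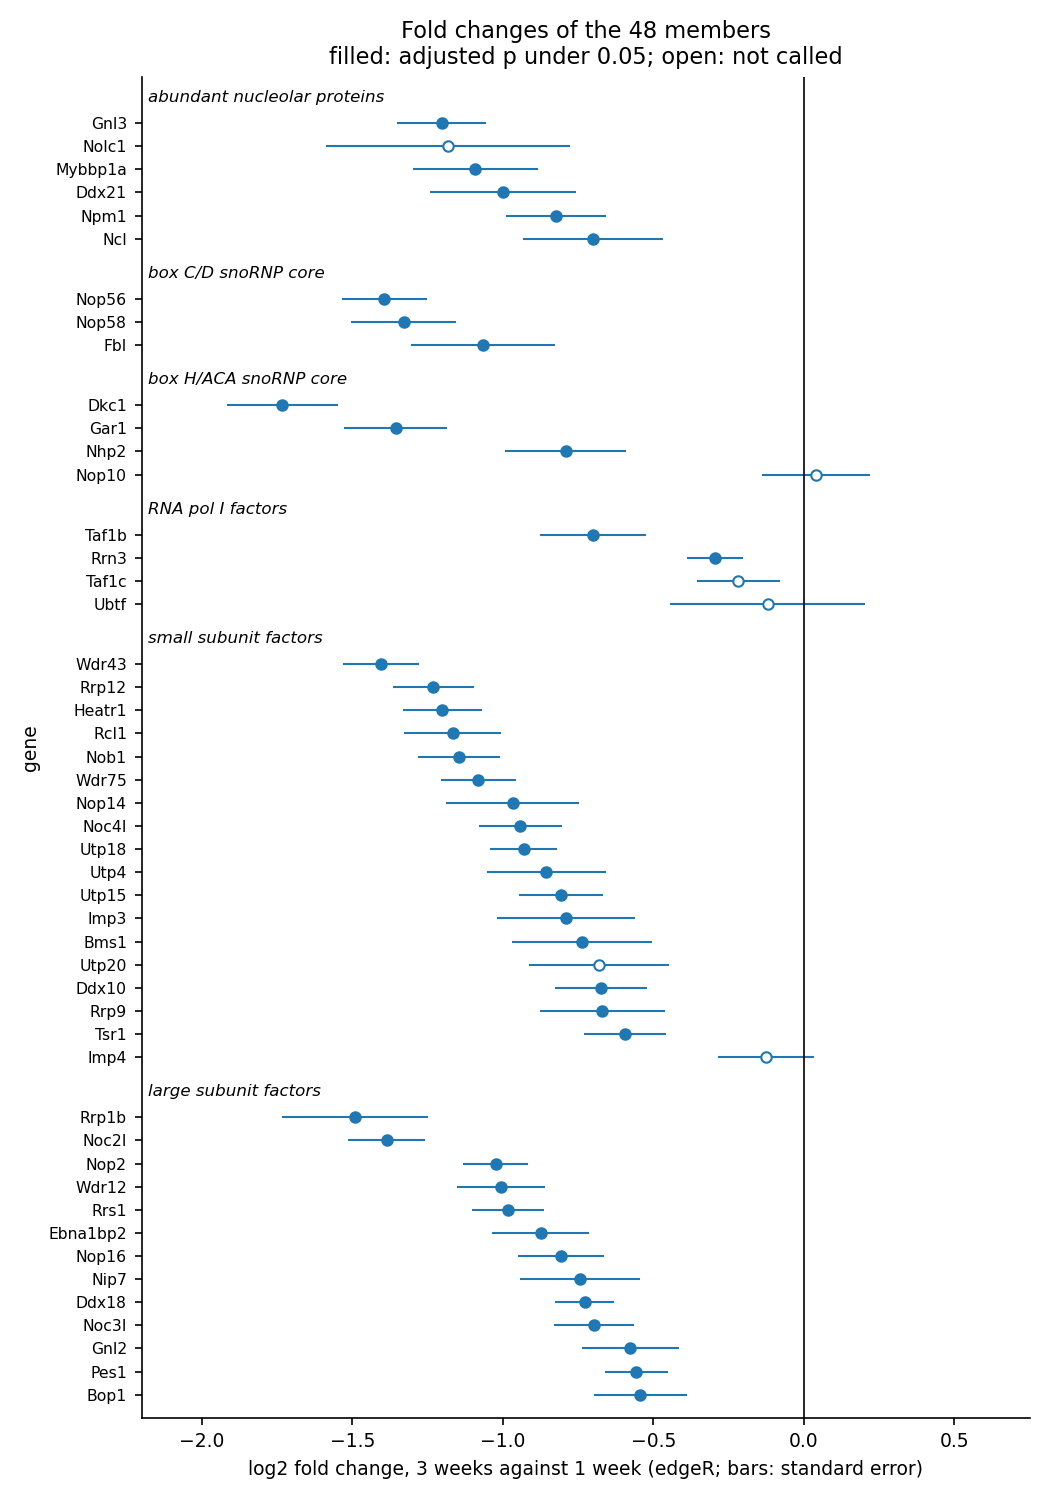
Log2 fold change (3 weeks against 1 week, edgeR) of each of the 48 genes, ordered by role, with bars for the standard error and filled points for an adjusted p under 0.05. The points lie left of 0 except for Nop10 at 0.04, and 6 points are open.

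Short stretches of promoter sequence are shown for 4 members because the genes moved together and because the E-box CACGTG, the sequence bound by MYC and related factors, occurs in promoters of many ribosome biogenesis genes. Windows from 250 bases before to 50 bases after the start of transcription were taken from RefSeq (GRCm38.p6) and were at hand for 42 of the 48 genes. Fbl, Npm1, Bop1, Gnl2, Rrs1 and Rrp12 had no entry. The windows below run 5′ to 3′ on the strand of the gene, all of them on the plus strand, with each E-box in capitals. They lie at chr16:13780449-13780748 (Rrn3), chr6:125131633-125131932 (Nop2), chr17:71615965-71616264 (Wdr43) and chr1:34439579-34439878 (Imp4).

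Rrn3: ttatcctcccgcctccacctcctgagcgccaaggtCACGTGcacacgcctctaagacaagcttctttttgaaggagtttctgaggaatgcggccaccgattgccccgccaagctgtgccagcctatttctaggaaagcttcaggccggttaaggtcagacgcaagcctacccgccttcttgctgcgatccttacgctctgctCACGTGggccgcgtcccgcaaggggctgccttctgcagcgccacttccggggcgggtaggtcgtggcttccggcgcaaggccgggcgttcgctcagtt
Nop2: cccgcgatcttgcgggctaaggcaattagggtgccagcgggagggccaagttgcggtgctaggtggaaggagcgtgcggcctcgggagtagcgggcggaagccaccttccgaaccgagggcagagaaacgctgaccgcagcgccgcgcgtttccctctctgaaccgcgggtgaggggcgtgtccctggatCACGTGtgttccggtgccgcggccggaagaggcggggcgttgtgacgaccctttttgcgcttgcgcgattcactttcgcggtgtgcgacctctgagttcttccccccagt
Wdr43: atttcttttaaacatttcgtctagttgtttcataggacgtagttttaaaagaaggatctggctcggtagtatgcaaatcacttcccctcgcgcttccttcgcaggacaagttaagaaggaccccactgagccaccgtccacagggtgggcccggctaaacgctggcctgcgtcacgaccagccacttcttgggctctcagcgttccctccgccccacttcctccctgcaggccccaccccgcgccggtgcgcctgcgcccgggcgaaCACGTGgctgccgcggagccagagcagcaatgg
Imp4: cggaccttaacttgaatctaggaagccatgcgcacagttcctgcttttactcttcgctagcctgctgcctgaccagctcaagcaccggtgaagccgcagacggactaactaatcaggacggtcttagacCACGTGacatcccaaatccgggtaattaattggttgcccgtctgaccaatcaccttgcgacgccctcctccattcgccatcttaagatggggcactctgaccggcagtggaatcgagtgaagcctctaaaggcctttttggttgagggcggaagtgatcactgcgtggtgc

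Rrn3 was the member with 2 E-boxes, which began 215 and 48 bases before the start. In Nop2 the E-box began 60 bases before the start, in Wdr43 17 bases after it and in Imp4 121 bases before it. These starts are those of RefSeq and differ from the gene starts given below. The window of Wdr43 lies wholly within the range given for that gene. In all, 10 of 42 members (23.8%) held CACGTG, which reads alike on both strands, beside 8.09% of 27025 genes with such windows. The other 6 carriers were Mybbp1a, Pes1, Tsr1, Utp18, Utp20 and Utp4. CCGGAA, the core of sites for ETS factors, occurred on either strand in 20 of 42 members (47.6%) and in 16.7% of all genes. The palindromic NRF1 site was in 0 of 42 windows and in 1.07% of all genes. The letters of these motifs do not contain each other, and each motif was counted alone. The 27025 genes include genes that were not tested for expression, whereas all 48 members were. Shares over the tested genes alone were not counted, so an excess cannot be ascribed to the role of the members. Of the 10 members with an E-box 8 were lower at 3 weeks (median log2 fold change −0.77), and of the 32 with a window but no E-box 28 were lower (median −0.91). Among the printed examples Wdr43 had one of the strongest decreases of all members and Imp4 was not called. These examples are the lowest and the highest log2 fold change of the small subunit factors. The part of the motif in the decrease was not tested.

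RNA polymerase I needs a small set of factors to start at the rRNA genes, and of the role groups these had the median log2 fold change nearest to 0, −0.26. Of the 4 members 2 were called lower, where 17.0% of all tested genes were. The same share is the background for the counts of the other role groups below. Subunits of the polymerase itself are neither among the members nor among the other pathway genes listed below. The values of this group therefore do not describe the polymerase. For prolonged culture of KCs the paper reports that RNA polymerase I components decreased along with proliferation. Taf1b (chr12:24498359-24558539, GRCm38), a subunit of the promoter-binding SL1 complex, measured 9.81, 10.4, 6.85 and 7.91 RPKM at 1 week and 5.11, 4.45, 5.08 and 4.49 RPKM at 3 weeks. Every value at 3 weeks was below the lowest one at 1 week, and the log2 fold change was −0.70 ± 0.18 (SE, n = 4 per time; edgeR, adjusted p = 0.0152).

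Rrn3 (chr16:13780708-13814839), which links the polymerase to its promoter and responds to growth signals, measured 26.4, 29.2, 26.8 and 26.9 RPKM at 1 week. At 3 weeks it measured 21.2, 20.5, 17.3 and 20.7 RPKM. The groups did not overlap, but the decrease was small, with a log2 fold change of −0.30 ± 0.09 (SE) and an adjusted p of 0.039 in edgeR. The call for Rrn3 was lost in 9 of 20 alternative computations, among them the fit within the shared preparations and the omission of any sample at 1 week or of replicate 1 or 2 at 3 weeks, with adjusted p-values of up to 0.206. Without replicate 2 at 3 weeks neither Rrn3 nor Taf1b was called, and the adjusted p of Taf1b reached at most 0.0585 over the alternatives.

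Ubtf (chr11:102304560-102319742), the architectural factor that binds along active rRNA genes, varied more between replicates than between times. It measured 6.28, 9.61, 11.5 and 13.0 RPKM at 1 week and 10.6, 7.11, 3.82 and 12.2 RPKM at 3 weeks. The ranges overlapped almost entirely, and the log2 fold change was −0.12 ± 0.32 (SE, edgeR, adjusted p = 0.807). Taf1c (chr8:119597871-119605222), another SL1 subunit, was weakly expressed, at 3.85 ± 0.387 RPKM (SD, n = 4) and 2.96 ± 0.361 RPKM, and was not called (log2 fold change −0.22, edgeR adjusted p = 0.256). Taf1c, Nolc1, Utp20 and Nhp2 are described in detail after their values were seen, whereas the other genes with values per sample follow a rule.

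The abundant nucleolar proteins shape the nucleolus and bind rRNA and other proteins. Among these 6 genes 5 were lower, with a median log2 fold change of −1.05. Npm1 (chr11:33152287-33163206), which encodes the chaperone nucleophosmin, was the most strongly expressed member. Its values were 392, 377, 350.3 and 338 RPKM at 1 week and 169, 188, 214 and 159 RPKM at 3 weeks. The highest value at 3 weeks was far below the lowest at 1 week, and the log2 fold change was −0.82 ± 0.17 (SE, edgeR, adjusted p = 0.0057). Of the exon reads of Npm1 83.7% mapped to a single place, and the gene was called lower with such reads alone.

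Gnl3 (chr14:31012433-31019152), encoding the GTP-binding protein nucleostemin, had the strongest decrease of this group. It measured 8.66, 11.6, 7.97 and 8.31 RPKM at 1 week and 3.63, 3.69, 2.82 and 4.07 RPKM at 3 weeks, without overlap. The log2 fold change was −1.20 ± 0.15 (SE, edgeR, adjusted p = 0.00067), and Gnl3 was called in all 20 alternative computations. Mybbp1a, a partner of the transcription factor Myb and of polymerase I, decreased from 52.1 ± 7.22 to 22.1 ± 6.76 RPKM (SD). The RNA helicase gene Ddx21 decreased from 33.4 ± 6.77 to 15.1 ± 5.03 RPKM (SD), which was a 2.00-fold lower normalized count.

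Ncl (chr1:86344719-86359400), encoding nucleolin, measured 31.8, 46.7, 49.5 and 55.5 RPKM at 1 week and 32.6, 26.4, 14.6 and 28.3 RPKM at 3 weeks. Replicate 1 at 1 week lay within the range of the samples at 3 weeks. Ncl passed the threshold narrowly, with a log2 fold change of −0.70 ± 0.23 (SE, edgeR, adjusted p = 0.0457), and lost the call in 8 of 20 alternatives, with adjusted p-values of up to 0.151. These included the fit within the shared preparations and the omission of replicate 2, 3 or 4 at 1 week and of replicate 2 or 4 at 3 weeks.

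Nolc1 (chr19:46075863-46085530), a chaperone that shuttles snoRNPs between nucleolus and Cajal bodies, was not called although its groups did not overlap. Its values were 9.35, 12.6, 17.0 and 19.4 RPKM at 1 week and 8.52, 4.86, 1.89 and 8.15 RPKM at 3 weeks. The log2 fold change was −1.18, but the standard error of 0.40 was the widest of all members and the adjusted p was 0.0505 (edgeR). It was called in 10 of 20 alternatives, among them the omission of replicate 1, 3 or 4 at 3 weeks, and the adjusted p ranged from 0.0161 to 0.126 over all alternatives.

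**Figure D2:**
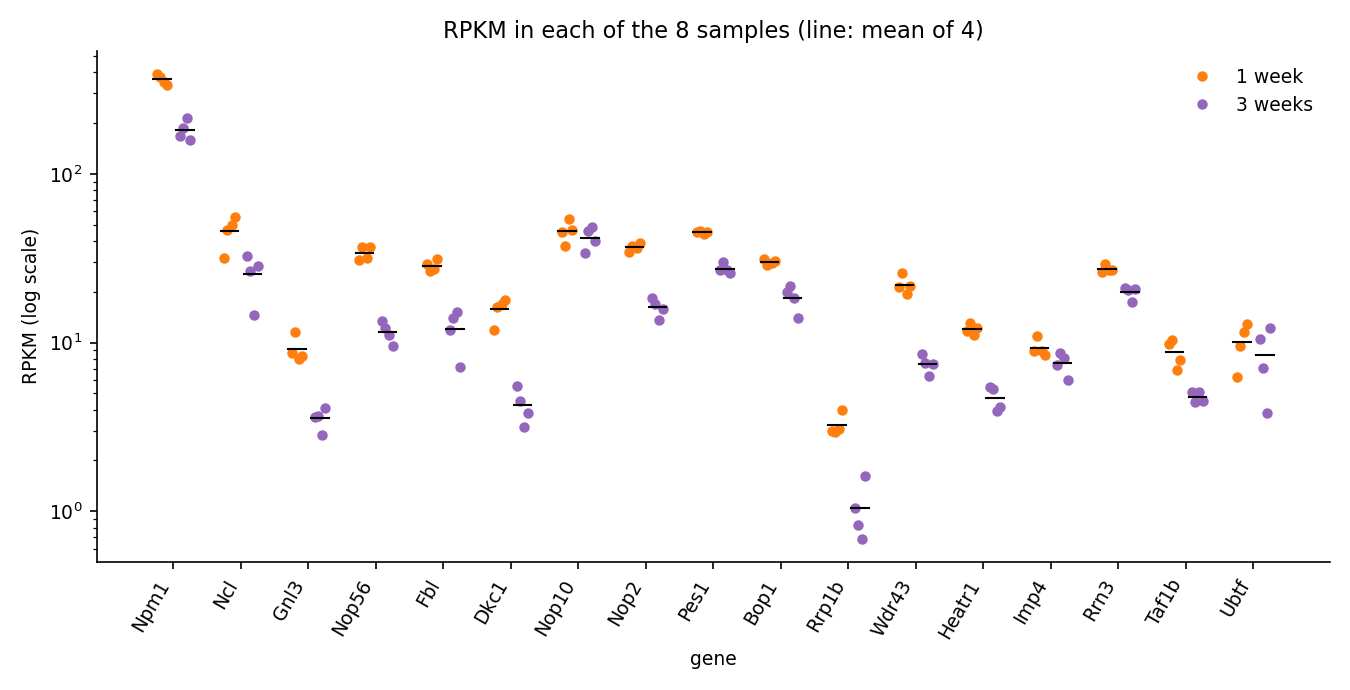
RPKM (log scale) of 17 members chosen by rule in the 4 samples at 1 week and the 4 samples at 3 weeks, with a line at the mean. Samples at both times overlapped for Ncl, Nop10, Imp4 and Ubtf and lay apart for the other 13 genes. Of all tested genes 26.2% were lower at 3 weeks without overlap in RPKM. The rule includes the member with the lowest log2 fold change of each role group.

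The 3 genes of the box C/D core were all lower, with a median log2 fold change of −1.33. Nop56 (chr2:130274430-130279313), a scaffold of the particle, measured 30.8, 37.0, 31.6 and 37.0 RPKM at 1 week and 13.4, 12.2, 11.1 and 9.52 RPKM at 3 weeks. All values at 3 weeks were under 14 RPKM, and the log2 fold change was −1.39 ± 0.14 (SE, edgeR, adjusted p = 0.000366). The paralogous scaffold gene Nop58 decreased from 12.2 ± 0.996 to 4.29 ± 0.839 RPKM (SD). Fbl (chr7:28169710-28179269), the methyltransferase fibrillarin, measured 29.1, 26.7, 27.4 and 31.4 RPKM at 1 week and 11.9, 14.0, 15.2 and 7.20 RPKM at 3 weeks. The groups lay apart and the log2 fold change was −1.07 ± 0.24 (SE, edgeR, adjusted p = 0.0093). The level of Fbl is less certain than its direction, since just 16.5% of its reads had a unique position. It was also called lower with these reads alone.

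Of the 4 genes of the box H/ACA core 3 were called lower and Nop10 was not called. Dkc1 (chrX:75095854-75109777), which encodes the pseudouridine synthase dyskerin and is also part of telomerase, had the strongest decrease of all 48 members. It measured 11.9, 16.3, 17.0 and 17.9 RPKM at 1 week and 5.51, 4.49, 3.16 and 3.83 RPKM at 3 weeks. The lowest sample at 1 week was above the highest sample at 3 weeks, and the log2 fold change of −1.73 ± 0.18 (SE, edgeR, adjusted p = 0.000403) corresponds to a 3.32-fold lower count. Gar1, a partner of dyskerin, decreased from 21.5 ± 2.49 to 7.48 ± 1.34 RPKM (SD), with a log2 fold change of −1.36.

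Nhp2 (chr11:51619735-51623714), another partner, measured 111, 100.3, 111 and 116 RPKM at 1 week and 50.6, 58.5, 72.7 and 41.7 RPKM at 3 weeks. The groups did not overlap, and the log2 fold change was −0.79 ± 0.20 (SE, edgeR, adjusted p = 0.0162). Nop10 (chr2:112261926-112263269), the smallest protein of the particle, measured 45.6, 37.4, 54.4 and 46.5 RPKM at 1 week and 33.8, 45.7, 48.2 and 39.9 RPKM at 3 weeks. The values overlapped, and the log2 fold change was 0.04 ± 0.18 (SE, edgeR, adjusted p = 0.89). Its sign depended on the computation and was negative in 6 of 20 alternatives, down to −0.22, of which none called Nop10. Whether Nop10 differs from the other members in its response was not tested.

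Small subunit factors cut and fold the precursor into the rRNA of the small subunit. Of these 18 genes 16 were lower, with a median log2 fold change of −0.89. Wdr43 (chr17:71615895-71659031) belongs to the UTP-A complex, which binds the nascent precursor first. It measured 21.2, 25.9, 19.5 and 21.7 RPKM at 1 week and 8.54, 7.57, 6.30 and 7.43 RPKM at 3 weeks. The samples at 3 weeks lay far below those at 1 week, and the log2 fold change of −1.41 ± 0.13 (SE, edgeR, adjusted p = 0.000262) was the strongest in this group. Heatr1 (chr13:12395027-12440289), of the same complex, measured 11.8, 13.1, 11.1 and 12.2 RPKM at 1 week and 5.43, 5.30, 3.91 and 4.13 RPKM at 3 weeks. It lay lower in each sample at 3 weeks as well, with a log2 fold change of −1.20 ± 0.13 (SE, edgeR, adjusted p = 0.000433).

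The other genes of the UTP-A complex on the list were lower too, Wdr75 with a log2 fold change of −1.08, Utp4 with −0.86 and Utp15 with −0.81. Utp18, of the next complex to bind, decreased by 0.93 on the log2 scale. Nop14 and Noc4l, which form a pair in the small subunit precursor, had log2 fold changes of −0.97 and −0.94. The GTPase gene Bms1 and its partner Rcl1 had values of −0.74 and −1.17. Bms1 lost its call when any sample at 1 week or replicate 1 or 2 at 3 weeks was omitted, with adjusted p-values of up to 0.1004 (edgeR). Late factors were lower as well, with a log2 fold change of −1.23 for Rrp12, which takes part in export, −1.15 for the endonuclease gene Nob1 and −0.59 for Tsr1, of whose reads 65.0% mapped to a single place. Rrp9 of the box C/D particle that guides cleavage had −0.67 and the helicase gene Ddx10 had −0.67. Tsr1 and Ddx10 lost their calls in the fit within the shared preparations (edgeR, adjusted p = 0.0506 and 0.0758). Omission of the same 6 samples, one at a time, also ended the call for Rrp9, with adjusted p-values of up to 0.0748 (edgeR).

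Imp3 and Imp4 bind the same partner protein in the early small subunit precursor but gave different values. Imp3 decreased from 48.6 ± 8.22 to 24.8 ± 6.10 RPKM (SD, log2 fold change −0.79). Its call was lost without replicate 1 or 2 of either time, with adjusted p-values of up to 0.0757 (edgeR). Imp4 (chr1:34439851-34449356) measured 8.86, 10.98, 8.86 and 8.46 RPKM at 1 week and 7.38, 8.71, 8.13 and 6.02 RPKM at 3 weeks, with overlap. Its log2 fold change was −0.13 ± 0.16 (SE, edgeR, adjusted p = 0.581), and a unique position was found for 69.4% of its reads. The difference between both genes was not tested. Utp20 (chr10:88746607-88826804), a large scaffold protein, measured 5.37, 7.61, 7.67 and 7.38 RPKM at 1 week and 4.57, 4.02, 2.05 and 5.17 RPKM at 3 weeks. The groups did not overlap in RPKM but did in normalized CPM, and Utp20 missed the threshold with a log2 fold change of −0.68 ± 0.23 (SE, edgeR, adjusted p = 0.0502). It was called in 9 of 20 alternatives, among them the omission of replicate 3 or 4 at 3 weeks, and the adjusted p ranged from 0.00304 to 0.112 over all alternatives.

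Large subunit factors act on the part of the precursor that yields the other rRNAs. All 13 genes of this group were lower, with a median log2 fold change of −0.81. Pes1, Bop1 and Wdr12 form the PeBoW complex. Pes1 (chr11:3963975-3980004) measured 45.4, 46.2, 44.1 and 45.4 RPKM at 1 week and 27.1, 29.9, 26.9 and 25.9 RPKM at 3 weeks. It had a narrow spread at both times, so that a moderate log2 fold change of −0.56 ± 0.10 (SE) gave an adjusted p of 0.00406 in edgeR. Bop1 (chr15:76452989-76477277) measured 31.5, 28.9, 29.8 and 30.5 RPKM at 1 week and 19.9, 21.6, 18.3 and 13.9 RPKM at 3 weeks. This was the smallest change of the group, −0.54 ± 0.15 on the log2 scale (SE, edgeR, adjusted p = 0.0247), without overlap. It was not called with the replicate block or without replicate 3 or 4 at 1 week or replicate 1 at 3 weeks, with adjusted p-values of up to 0.0612. Wdr12 was expressed at a lower level, with means of 3.74 ± 0.160 RPKM (SD) and 1.65 ± 0.202 RPKM, with a log2 fold change of −1.01.

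Nop2 (chr6:125131909-125144753), an rRNA methyltransferase that is long known as a proliferation antigen, measured 34.6, 37.4, 36.5 and 38.9 RPKM at 1 week and 18.4, 16.9, 13.7 and 15.9 RPKM at 3 weeks. The groups lay far apart, and the log2 fold change was −1.02 ± 0.11 (SE, edgeR, adjusted p = 0.000391). Rrp1b (chr17:32036100-32062865) had the lowest mean RPKM of all members at both times. Its values were 2.99, 2.93, 3.08 and 3.98 RPKM at 1 week and 1.04, 0.8295, 0.688 and 1.61 RPKM at 3 weeks, and its log2 fold change of −1.49 ± 0.24 (SE, edgeR, adjusted p = 0.0021) was the strongest of the large subunit factors. It rested on few reads, 87 in the lowest and 541 in the highest sample. Noc2l, which escorts precursors out of the nucleolus, followed with −1.39, whereas its relative Noc3l had −0.70. The remaining factors Rrs1, Ebna1bp2, Nop16, Nip7, Ddx18 and Gnl2 had log2 fold changes between −0.98 and −0.58. All of them lay apart between both times in RPKM, as did 26.2% of all tested genes in the same direction. The call for Gnl2 was lost in 5 of 20 alternatives, among them the fit within the shared preparations and the omission of replicate 2 or 4 at 1 week or replicate 2 at 3 weeks, and that for Nip7 without replicate 1 at 3 weeks, with adjusted p-values of up to 0.0945 and 0.0559 (edgeR).

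To see how far the decrease reached, other genes of the pathway were listed by function. Of 103 such genes 100 could be tested, and 62 were lower and 1 was higher, with a median log2 fold change of −0.60. Over all tested genes 17.0% were called lower and 15.7% higher, which is the background for each list below. For 36 further small subunit factors 23 were lower, led by the acetyltransferase gene Nat10 with −1.18 on the log2 scale. For 40 further large subunit factors 24 were lower, led by Nle1 with −1.46, and Las1l, a subunit of the enzyme complex that removes an internal spacer, was higher by 0.64. Of 9 snoRNP assembly factors 7 were lower, led by Nufip1 with −1.24. Of 12 tested genes of the nuclear exosome and its cofactors 7 were lower. Exosc8, a subunit of the exosome ring, decreased from 9.20 to 2.35 RPKM on average (log2 fold change −1.80), more than any of the 48 members. Of the 3 genes for the particle that brings 5S rRNA to the large subunit only Heatr3 was called, with −0.81, whereas the ribosomal protein genes Rpl5 and Rpl11 had −0.46 and −0.22 (edgeR, adjusted p = 0.0969 and 0.448). The shares called in these lists and in the 6 role groups were not tested against each other.

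**Figure D3:**
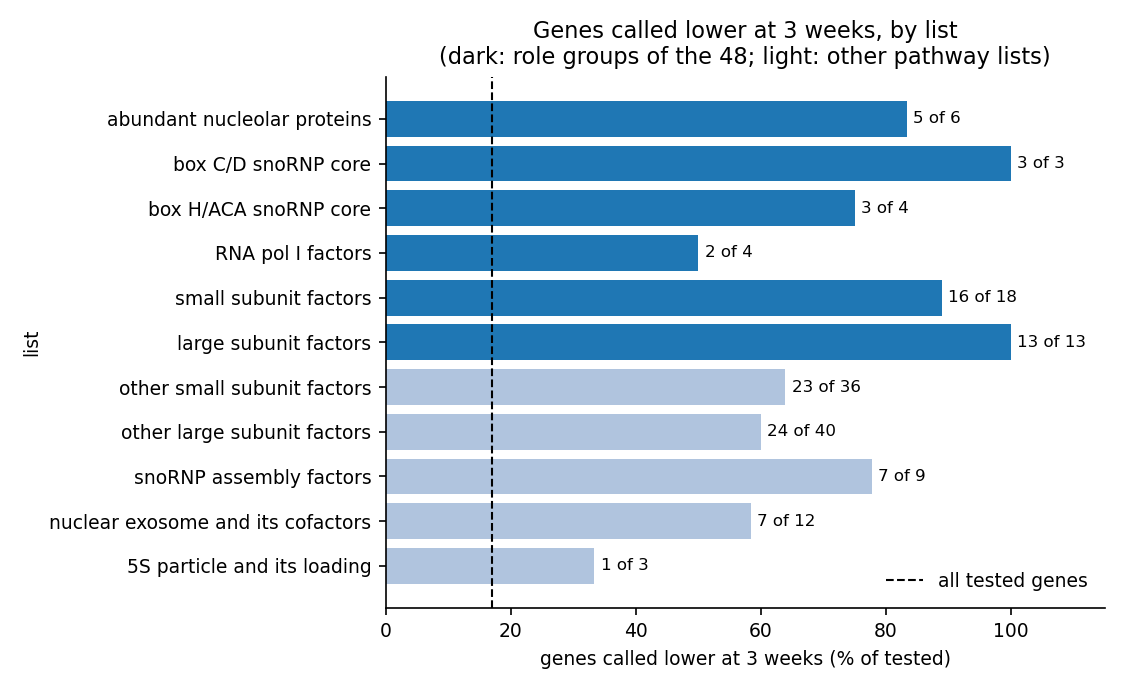
Share of tested genes called lower at 3 weeks (edgeR, adjusted p under 0.05) in the 6 role groups of the 48 members (dark bars) and in 5 lists of other ribosome biogenesis genes (light bars), with counts beside the bars. The dashed line marks the 17.0% of all tested genes, and the bars range from 1 of 3 genes to all 13 large subunit factors.

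The members varied more between samples at 3 weeks. The median SD of log2 CPM was 0.12 at 1 week and 0.27 at 3 weeks, and it was larger at 3 weeks for 40 of 48 members. The same holds for 72.0% of all tested genes, with medians of 0.21 and 0.32. Replicates 3 and 4 were the lowest sample at 3 weeks for 17 and 30 members. Replicate 3 was lowest for Nolc1, Ubtf, Utp20, Ddx21, Mybbp1a and Ncl, by up to 1.23 below the group mean for Nolc1, and highest for Npm1, Nhp2, Imp3 and Fbl. Replicate 4 showed the opposite for Fbl, Nhp2 and Imp3, which were lowest there. Departures varied with transcript length in most samples, not in these replicates alone. Across the 48 members, Spearman's rho between the departure of replicate 3 from the group mean and the length of the transcript was −0.53, and across 12588 tested genes it was −0.56. For replicate 4 the values were 0.44 and 0.36, and for replicate 1 of the same time 0.41 and 0.38. Replicate 1 at 1 week had −0.59 and −0.40, replicate 3 had 0.33 and 0.24, and replicate 4 had 0.34 and 0.20. In replicate 2 the values were close to 0 at 1 week (0.02 and −0.04) and small at 3 weeks (−0.11 and −0.10). Genes of one library share its RNA and depth, so that these correlations are descriptions. When the dependence on exon length was removed from each sample, 44 members were called lower and 0 higher, beside 18.0% and 18.1% of all tested genes.

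**Figure D4:**
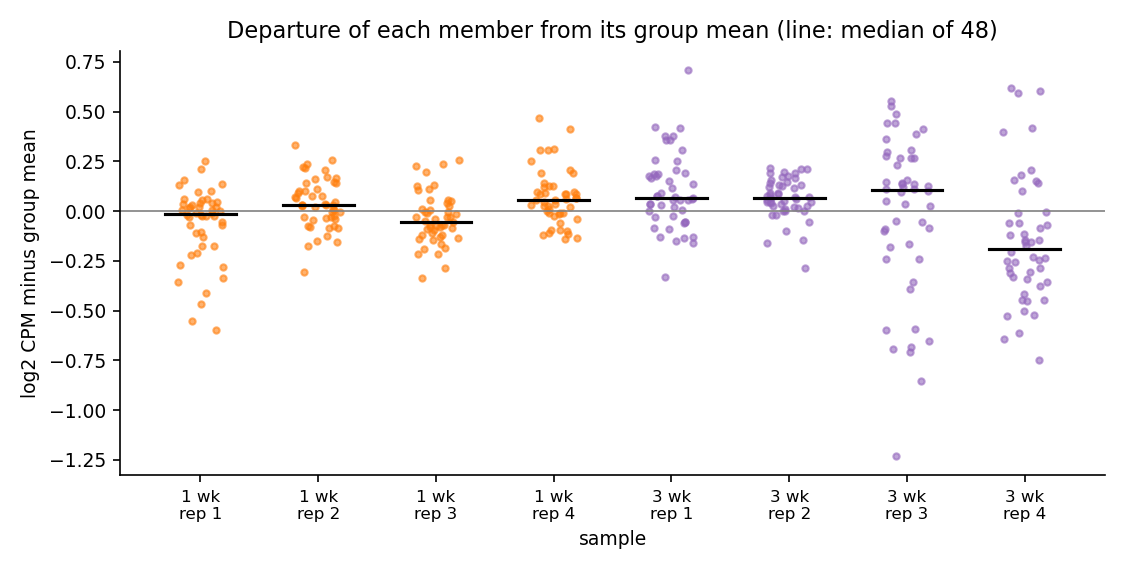
Departure of log2 CPM from the mean of the 4 samples of the same time, for each of the 48 members in each of the 8 samples, with a line at the median. Points spread most in replicate 3 at 3 weeks, down to −1.23, and the median lies lowest in replicate 4 at 3 weeks, at −0.19.

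The tables also count reads on introns, which come mostly from RNA that is not yet spliced, from retained introns or from overlapping transcripts. Introns held 0.290%, 0.271%, 0.366% and 0.397% of the reads on the members at 1 week. At 3 weeks they held 0.753%, 0.571%, 0.627% and 1.34%. All samples at 3 weeks were above all samples at 1 week, and replicate 4 stood highest. Over all genes the intron share was between 1.48% and 2.02% at 1 week and between 1.49% and 2.38% at 3 weeks, with overlap. The number of intron reads behind the members' shares was small, between 241 and 479 in a sample. Scaled to all reads on genes, intron reads of the members came to 14.1 to 21.7 CPM at 1 week and 14.9 to 33.2 CPM at 3 weeks, and these ranges overlapped, whereas exon reads separated completely.

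Gene by gene, the intron share was higher at 3 weeks for 44 of the 46 members with an intron read, with a median over members of 0.255% at 1 week and 0.722% at 3 weeks. The background was high. The share was higher at 3 weeks in 77.8% of 11903 tested genes with an intron read, and in 88.3% of the 2028 that were called lower, so that the count over the members was near that of other decreasing genes. In Taf1b the intron share was 1.59% at 1 week (27 reads) and 7.44% at 3 weeks (67 reads). In Taf1c, which had the most intron reads, it was 20.8% and 19.0%. Without Taf1c, Npm1 and Nop2, the 3 members with the most intron reads, the shares were 0.221% to 0.321% and 0.497% to 1.30%. The part that the lower number of exon reads has in the higher share was not tested.

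**Figure D5:**
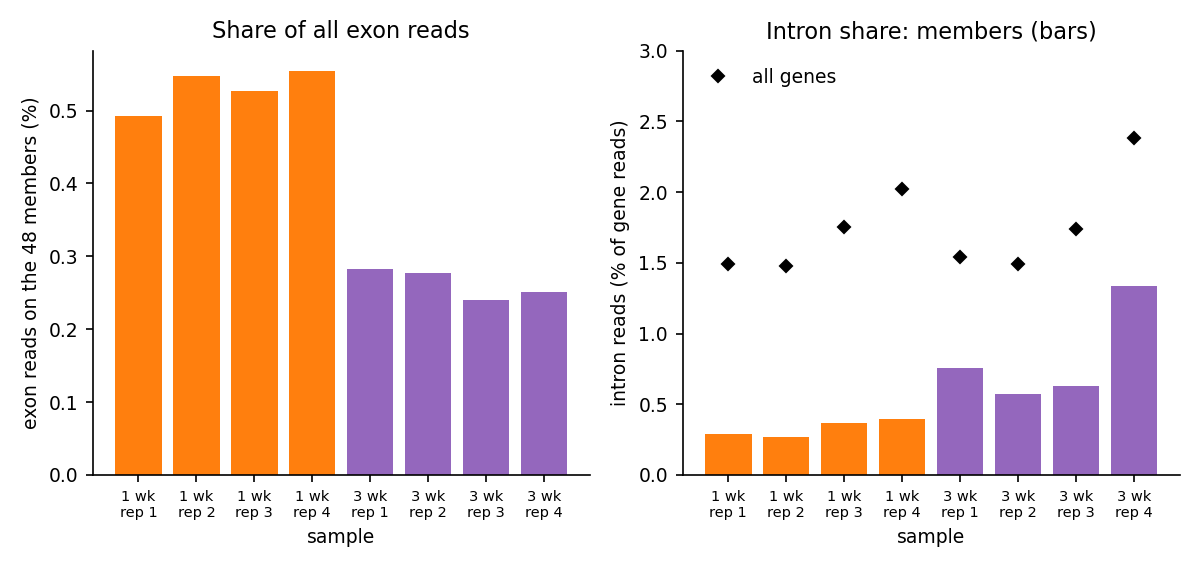
Left, percent of all exon reads that fell on the 48 members in each sample; right, percent of gene reads on introns for the members (bars) and for all genes (diamonds). Exon shares at 3 weeks (0.240% to 0.282%) lie below those at 1 week, whereas the members' intron shares at 3 weeks (0.571% to 1.34%) lie above them.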

How the data were processed

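RNA of KCs cultured for 1 week or 3 weeks (4 samples each) was analysed from 1 gene table per sample. The authors made poly(A) libraries, trimmed adapters and used the CLC Genomics Workbench (version 12) to map reads on GRCm38. The deposited counts are whole reads per gene on exons, genes and introns, without normalization, and the authors also deposited RPKM. The strand setting and annotation release are not given in the sources used here, so that reads of genes overlapping on opposite strands cannot be told apart. Some members have such an overlap, among them Dkc1, Wdr43, Nop56, Noc2l and Taf1c, and others have none. The part of such reads was not tested.

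The exon counts, 13896807 to 20026084 per sample, entered edgeR 4.0.16 under R 4.3.3 (filterByExpr, TMM, glmQLFit, glmQLFTest), with Benjamini-Hochberg adjustment over 12590 genes and a threshold of 0.05, without pairing. The procedure was checked on simulated counts drawn independently for each gene. These lack the deviations that genes of one library share, so the check does not cover them. Alternatives used DESeq2 1.42.0, limma 3.58.1 on log2(RPKM + 0.1) or log2(RPKM + 1), other normalizations, filters and read classes, blocks and omitted samples. A correction for exon length was added after the data had been seen. Python 3.11.15 and matplotlib 3.10.9 served for summaries. Members, gene lists and tests were chosen with earlier results of these data known. Values per sample are given for the members with the lowest and highest log2 fold change of each role group and for Ncl, Npm1, Fbl, Dkc1, Ubtf, Rrn3, Pes1, Bop1, Nop2 and Heatr1, and in each pathway list the gene with the largest change is named. Transcript lengths are from GENCODE M21 (GRCm38), for the transcript with the longest coding sequence.

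Replicates of one time differed beyond sampling noise (chi-square per degree of freedom at least 14.6). Deviations of samples with the same replicate number correlated at −0.23, −0.15, −0.15 and 0.25, and the numbers were not taken as pairs. The authors state that batches of KCs were shared between both culture times, but not which samples share a batch. Numbers in the deposited names, taken as preparation numbers, read 46, 47, 49 and 90 for the samples at 1 week, followed by 46, 49, 57 and 90 for those at 3 weeks, and 3 preparations occurred at both times. They join replicates 1 and 1, replicates 4 and 4, and replicate 3 at 1 week with replicate 2 at 3 weeks, with correlations of −0.23, 0.25 and 0.20. Standard errors derive from the F statistics.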

Additional observations from a re-analysis of the deposited data

Results flagged for a closer look

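A single sample stood apart from the other 3 of its time in 4 of 42 groups checked, over 21 members, where chance alone gives about 5% of groups. Imp4 was highest in replicate 2 at 1 week, at 10.98 RPKM. Rrn3 was lowest in replicate 3 at 3 weeks, at 17.3 RPKM. Rrp1b was highest in replicate 4 at 1 week, at 3.98 RPKM. Utp20 was lowest in replicate 1 at 1 week, at 5.37 RPKM. The causes were not tested.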

How the results depend on the processing

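Over 20 alternatives, between 35 and 44 members were called lower and 0 were called higher, 31 of the 42 called members were called in all of them, and 45 of 48 members had a negative log2 fold change in all of them. The median of the members ranged from −1.06 to −0.83. With the replicate numbers as a replicate block 36 members were lower, and with the 3 shared preparations as a block 37. Leaving out each sample in turn gave 35 to 44. The calls over all genes, lower and higher together, moved with the setting as well. They numbered 4127 in the main fit, 2867 with the replicate block, 3109 with the preparation block and 3015 to 4861 with a sample left out. The most were 4882 in DESeq2. The number of all genes called higher was 1981 and fell to 1313 and 1281 in limma on log2(RPKM + 0.1) and log2(RPKM + 1), to 1309 with the replicate block and to 1316 with the preparation block, so that higher calls were 1981 of 4127 with edgeR but 1313 of 4402 (29.8%) and 1281 of 4371 (29.3%) in limma. Of the RNA polymerase I factors 2 were called, but 1 without a filter on low counts, 0 with the replicate block, 1 with the preparation block and 0 to 2 with a sample left out. In the replicate block, numbers 1 and 4 share a preparation number across times, whereas 2 and 3 do not, and lost calls are no sign of a smaller change. Of the 5S particle genes 1 was called, 2 in both limma settings, and 1 to 3 with a sample left out. The other counts stayed within 1.5 times.

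Signs turned for genes that were not called. The log2 fold change of Nop10 was −0.026 without a filter on low counts, −0.13 in both limma settings, −0.22 with the preparation block and −0.12 to 0.14 with a sample left out. Imp4 had 0.046 with unique exon reads. Ubtf had 0.065 with the preparation block and −0.33 to 0.076 with a sample left out. These causes were not tested. At 4 samples per time, changes as small as the estimates for Taf1c and Imp4 can be missed, and whether either gene changed is not known. Adjusted p-values of 0.0502 and 0.0505 (edgeR) for Utp20 and Nolc1 do not separate these genes from those called.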
